A study of Oryza sativa Japonica Group with 22 samples.

Results

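The transcripts of the 4 rice sensors and transcription factors of the unfolded protein response (UPR) were followed in milkripe seeds of 6 rice lines. They are IRE1 (Os07g0471000), bZIP50 (Os06g0622700), bZIP39 (Os05g0411300) and bZIP60 (Os07g0644100), chosen by identifier for their known place in the pathway, and they are 4 of the 38866 genes in the count files. All 4 passed the filter on low counts, which kept 26821 genes. The ER chaperone BiP1 (Os02g0115900) was measured beside them as the read-out to which they were related.

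The UPR is the programme by which a cell adjusts the folding capacity of the endoplasmic reticulum (ER) to its load of secretory proteins, a load that is high in the seed endosperm, where storage proteins are made on the ER. IRE1 is an ER membrane protein with kinase and ribonuclease domains that cuts the mRNA of bZIP50, and the spliced mRNA encodes the nuclear form of this transcription factor, which is known in rice to induce ER chaperone genes such as BiP1. bZIP39 and bZIP60 are made as ER membrane proteins and act after their cytosolic part has been released by proteolysis, as their Arabidopsis counterparts do. BiP1 is the abundant Hsp70 chaperone of the ER lumen. Much of the activity of these sensors is thus set by splicing or proteolysis, and a count of reads per gene measures neither. In particular, spliced and unspliced bZIP50 mRNA fall in the same count.

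Seeds were collected 10 days after flowering from individual panicles, and rRNA-depleted RNA was sequenced in 22 libraries. All lines share the background of the japonica cultivar Taipei 309, whose untransformed form is the control line Taipei (n = 4 libraries, no transgene). SSA (n = 3) carries HaSSA, the methionine-rich albumin of sunflower with an ER retention signal, under a wheat glutenin promoter that is active in the endosperm. CGS (n = 5) carries AtD-CGS, a cystathionine gamma-synthase of Arabidopsis made insensitive to feedback and sent to plastids. SAT (n = 3) carries EcSAT, a plastid-targeted serine acetyltransferase of Escherichia coli, and in both of these lines the transgene has the maize ubiquitin promoter, which is active in most tissues. CGSxSSA (n = 4) and SATxSSA (n = 3) carry HaSSA with AtD-CGS or with EcSAT and come from crosses with SSA as the pollen parent. Each of the 3 single transgenic lines is 1 transformation event, so the effect of a transgene and that of its insertion event cannot be told apart. Through the crosses, SSA, CGSxSSA and SATxSSA share the event of SSA, so they are not independent insertions of HaSSA. The libraries of each double line were drawn from 2 lines selected from its cross.

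Each library held between 29642343 and 41585957 reads assigned to genes on the anti-strand. No pair of libraries within a line agreed within counting error, so none was counted as a repeat. In the 10 libraries with HaSSA, 2.87 to 8.07% of reads were unmapped, against 0.630 to 0.920% in the 12 without it. The authors mapped to the rice genome first and sought transgene reads, those of HaSSA included, among the unmapped ones. What share of the unmapped reads came from HaSSA was not tested here. SATxSSA replicate 1 stood apart, with 20.3% of its reads mapped where no gene lay on the counted strand, against 11.8 to 14.9% in the other 21 libraries. Such reads can lie outside genes or within a gene on the other strand. Several results of SATxSSA are therefore also given without this library. All 10 endosperm marker genes looked for, of storage proteins and starch synthesis, were detected in every line. Their summed level had a median of 137123 CPM (counts scaled to a common library size, with TMM) in Taipei, 127457 in CGS and 129519 in SAT, and of 58060 in SSA, 74252 in CGSxSSA and 73113 in SATxSSA. It was thus lower in every library with HaSSA (41258 to 83107 CPM) than in every library without (104511 to 161626 CPM). Of all single genes tested, 0.47% had ranges that were separate between these sets in either direction. Most of this sum came from the 4 storage protein genes (58.2 to 83.7% of it per library), which held 23992 to 59889 CPM with HaSSA and 83389 to 135275 without. The 6 starch synthesis genes held 17266 to 23693 CPM with HaSSA (median 19927) and 21122 to 27691 without (median 23737), ranges that overlapped. The part of these genes in the results on bZIP50 was not tested. The summed levels of 3 green tissue markers (2210 to 3153 CPM with HaSSA, 2394 to 3626 without) and of 4 embryo and aleurone markers (1926 to 4054 with HaSSA, 2004 to 4127 without) overlapped, with all of these genes detected. In bulk seed RNA, fewer cells of a type and less RNA per cell cannot be told apart.

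bZIP50 was the member that rose, and it rose in each of the 3 lines with HaSSA. In Taipei its level was 15.6, 13.9, 14.8 and 15.0 CPM in replicates 1 to 4. In SSA it was 48.8, 40.2 and 53.3 CPM in replicates 1 to 3. All 3 SSA libraries lay above all 4 Taipei libraries, with no overlap. In this comparison 21.1% of all genes had ranges wholly above or wholly below that of Taipei. The raw counts behind these levels were 1427 to 2077 reads in SSA and 453 to 508 in Taipei. The mean of SSA, 47.4 ± 6.69 CPM (SD, n = 3), was 3.20-fold that of Taipei, 14.8 ± 0.727 (SD, n = 4), with a 95% interval of 2.74 to 3.74. The log2 fold change was 1.68 (SE 0.108, adjusted p = 5.98e-10 with edgeR's quasi-likelihood test and Benjamini-Hochberg adjustment over all genes tested). bZIP50 was the 1 member of 4 called in SSA at the threshold of 0.01, where 2.46% of the 26821 genes tested were called.

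The same gene was higher in the lines that combine HaSSA with a biosynthetic enzyme. In CGSxSSA its level was 36.8, 39.2, 43.1 and 46.4 CPM (mean 41.4 ± 4.27, SD, n = 4). In SATxSSA it was 39.3, 34.8 and 33.0 CPM (mean 35.7 ± 3.22, SD, n = 3). Every library of both lines lay above every Taipei library, and 7.21% of all genes in CGSxSSA and 18.2% in SATxSSA had ranges wholly above or wholly below that of Taipei. The log2 fold change from Taipei was 1.48 in CGSxSSA (SE 0.102, 2.79-fold, edgeR adjusted p = 2.32e-09), where bZIP50 was again the 1 member called and 1.08% of all genes were. In SATxSSA it was 1.27 (SE 0.108, 2.41-fold, edgeR adjusted p = 1.06e-07), again with no other member called and with 1.22% of all genes called. Without SATxSSA replicate 1 the log2 fold change was 1.20 (edgeR adjusted p = 1.69e-06).

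The lines with an enzyme transgene alone kept bZIP50 near the Taipei level. In CGS its level was 12.7, 17.0, 15.4, 14.6 and 16.8 CPM (mean 15.3 ± 1.76, SD, n = 5). In SAT it was 15.9, 13.4 and 15.0 CPM (mean 14.8 ± 1.27, SD, n = 3). Both ranges overlapped that of Taipei. The log2 fold change was 0.05 in CGS (95% interval -0.15 to 0.25, edgeR adjusted p = 0.815) and -0.01 in SAT (95% interval -0.24 to 0.23, edgeR adjusted p = 0.989). None of the 4 members was called by edgeR in CGS, where 3.69% of all genes were, or in SAT, where 0.69% were. At an unadjusted p under 0.05 the count was also 0 of 4 in both lines, and DESeq2 called 0 of 4 as well.

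**Figure D1:**
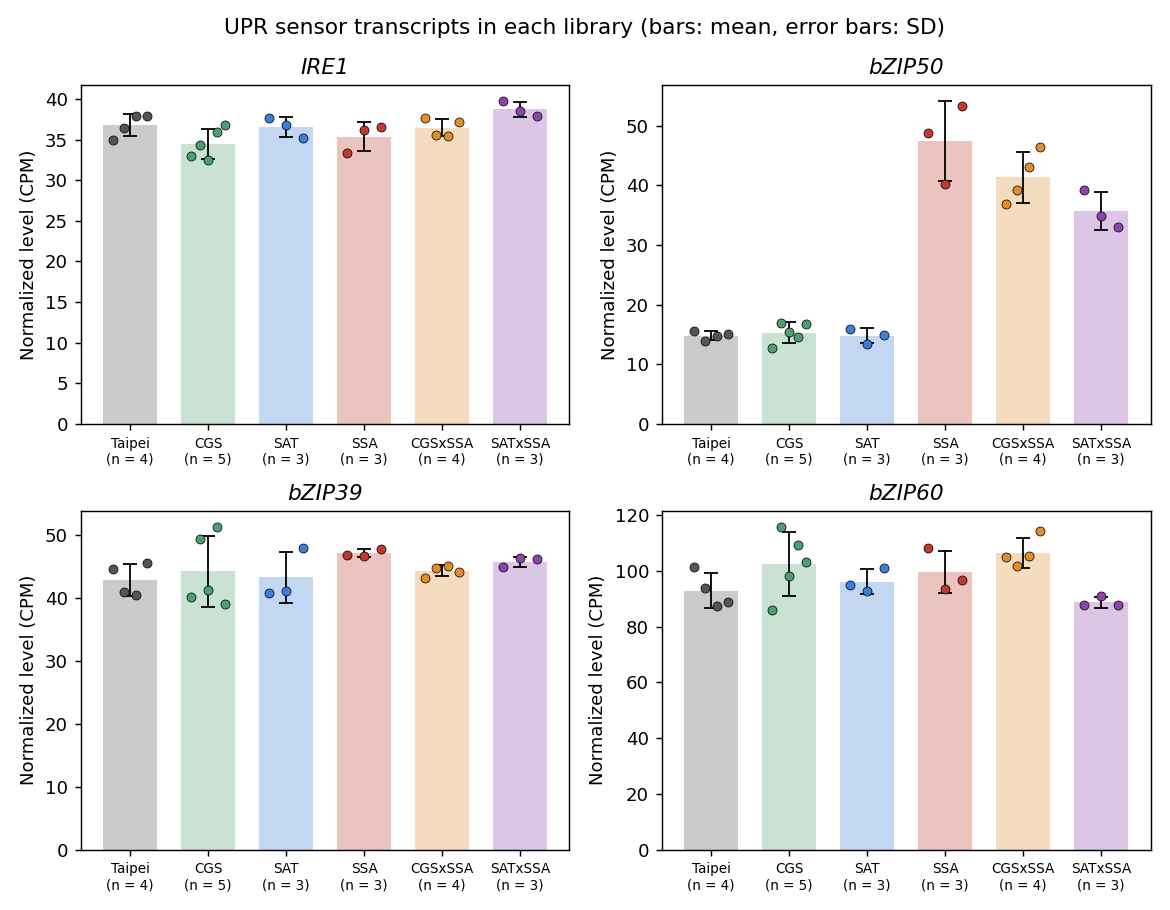
Level of each sensor transcript in each of the 22 libraries, in CPM on axes that start at 0. Points are libraries, bars the mean of a line and error bars its SD. The bZIP50 panel shows 10 libraries with HaSSA between 33.0 and 53.3 CPM and 12 without between 12.7 and 17.0, while the other 3 panels show bars of similar height in all lines.

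Over all libraries, bZIP50 therefore fell into separate ranges. The 10 libraries with HaSSA lay between 33.0 and 53.3 CPM (median 39.7) and the 12 without between 12.7 and 17.0 CPM (median 15.0). Of all genes tested, 0.328% had every library with HaSSA above every library without, and 0.47% were separate in either direction. IRE1, bZIP39 and bZIP60 were not among them, since their ranges overlapped.

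The effect of HaSSA was also read within the background of each enzyme transgene, which compares lines that differ by HaSSA alone as far as the crosses allow. With AtD-CGS present in both lines, CGSxSSA exceeded CGS in bZIP50 by a log2 fold change of 1.43 (SE 0.0951, edgeR adjusted p = 1.15e-09), and 1 of 4 members was called against 3.87% of all genes. With EcSAT present in both, SATxSSA exceeded SAT by 1.27 (SE 0.118, 2.42-fold, edgeR adjusted p = 6.71e-07), and 1 of 4 members was called against 4.25% of all genes. Without SATxSSA replicate 1 the latter was 1.20 (edgeR adjusted p = 8.74e-06).

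The mean level of bZIP50 was highest in SSA, followed by CGSxSSA and SATxSSA, and then by CGS, Taipei and SAT. SSA and CGSxSSA differed by 6.05 CPM, less than the SD within SSA, and their ranges overlapped. Between CGSxSSA and SATxSSA the step was 5.67 CPM, larger than either SD, yet the ranges overlapped there too. The step from SATxSSA down to CGS was 20.4 CPM with no overlap, and the steps between CGS, Taipei and SAT were smaller than the SDs of these lines.

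Whether an enzyme transgene altered the response to HaSSA was asked by comparing each double line with SSA. For bZIP50 the log2 fold change of CGSxSSA from SSA was -0.20 (SE 0.106, 95% interval -0.42 to 0.02, edgeR adjusted p = 0.521). edgeR called 0 of the 4 members in that comparison and 0.112% of all genes, with 0 of 4 also at an unadjusted p under 0.05 and with DESeq2. For SATxSSA from SSA it was -0.41 (SE 0.114, 95% interval -0.65 to -0.17, unadjusted p = 0.00158, edgeR adjusted p = 0.099). This interval lies below 0 and all 3 SATxSSA libraries lay below all 3 SSA libraries, a separation in either direction that 15.4% of all genes showed. The comparison did not pass the threshold, and 0.619% of all genes did. Again 0 of 4 members were called by edgeR or DESeq2, and bZIP50 was the 1 member with an unadjusted p under 0.05. Without SATxSSA replicate 1 the log2 fold change was -0.48 (edgeR adjusted p = 0.106).

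The difference of the HaSSA effects themselves was tested as an interaction. The effect of HaSSA on bZIP50 was smaller by 0.25 on the log2 scale with AtD-CGS than without (log2 difference -0.25, SE 0.144, 95% interval -0.54 to 0.05, edgeR adjusted p = 0.436), and with EcSAT the difference was -0.40 (SE 0.159, 95% interval -0.73 to -0.08, unadjusted p = 0.0183, edgeR adjusted p = 0.270). Neither passed the threshold, and edgeR and DESeq2 called 0 of 4 members in either interaction, where edgeR called 0.38% and 0.25% of all genes. At an unadjusted p under 0.05 there were 0 of 4 members with AtD-CGS and 1 of 4, bZIP50, with EcSAT.

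IRE1, the sensor that acts upstream of bZIP50, had nearly the same transcript level in all lines. Its level was 35.0, 36.4, 37.9 and 37.9 CPM in Taipei, 33.0, 34.3, 32.5, 35.9 and 36.7 in CGS, and 37.7, 36.7 and 35.2 in SAT. With HaSSA it was 33.3, 36.2 and 36.6 CPM in SSA, 37.7, 35.6, 35.5 and 37.1 in CGSxSSA, and 39.7, 38.5 and 38.0 in SATxSSA. The values of SSA and CGSxSSA overlapped those of Taipei, while the 3 SATxSSA libraries lay just above the highest Taipei library. Such a separation was common in that comparison, where the ranges of 18.2% of all genes did not overlap, and IRE1 was not called there (log2 fold change 0.07, SE 0.0600, edgeR adjusted p = 0.515).

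In SSA the IRE1 transcript had a log2 fold change of -0.06 (SE 0.0602, edgeR adjusted p = 0.672), with a 95% interval of 0.881- to 1.05-fold. This interval lies outside the fold change of bZIP50 in the same libraries. In CGSxSSA it was -0.01 (95% interval -0.13 to 0.10), in CGS -0.09 (95% interval -0.20 to 0.02) and in SAT -0.01 (95% interval -0.14 to 0.12), none of them called. The spread between the libraries of a line was small, with a coefficient of variation of 2.35 to 5.33%. Counting error alone gives 2.60 to 2.96% at these read counts. The spread was farthest above it in CGS (5.33% against 2.96%) and SSA (5.09% against 2.80%). From the highest mean, in SATxSSA (38.7 ± 0.910 CPM, SD, n = 3), to the lowest, in CGS (34.5 ± 1.84, SD, n = 5), the order was SATxSSA, Taipei, SAT, CGSxSSA, SSA and CGS, and the neighbours after the first step differed by less than the larger of their SDs.

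bZIP39, a membrane-tethered factor of the proteolytic arm, did not pass the test in any line. Its level was 44.5, 40.9, 40.3 and 45.5 CPM in Taipei, 40.0, 49.3, 41.3, 51.2 and 39.1 in CGS, and 40.7, 41.0 and 47.8 in SAT. With HaSSA it was 46.8, 46.5 and 47.7 CPM in SSA, 43.1, 44.7, 45.1 and 44.1 in CGSxSSA, and 44.8, 46.2 and 46.1 in SATxSSA. The SSA libraries lay above those of Taipei, a separation that 21.1% of all genes showed in this comparison, and the other lines overlapped Taipei. The log2 fold change was 0.13 in SSA (SE 0.0849, 95% interval -0.04 to 0.31, edgeR adjusted p = 0.421), 0.05 in CGSxSSA (adjusted p = 0.911) and 0.09 in SATxSSA (adjusted p = 0.568). It was 0.04 in CGS (adjusted p = 0.770) and 0.01 in SAT (adjusted p = 0.962).

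The spread of bZIP39 differed between lines. In the lines with HaSSA its coefficient of variation was 1.32% in SSA, 1.96% in CGSxSSA and 1.74% in SATxSSA, below the 2.39 to 2.66% expected from counting error. In Taipei it was 5.98%, in SAT 9.27% and in CGS 12.8%, where replicates 2 and 4 lay at 49.3 and 51.2 CPM and the other 3 between 39.1 and 41.3. With 3 to 5 libraries per line, these values are given as a description and were not tested. The order of the means ran from SSA (47.0 ± 0.622 CPM, SD, n = 3) through SATxSSA, CGSxSSA, CGS and SAT to Taipei (42.8 ± 2.56, SD, n = 4), and from CGSxSSA on, neighbours differed by less than the larger of their SDs.

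bZIP60, the other membrane-tethered factor, was likewise not called in any line. Its level was 101, 93.9, 87.4 and 88.9 CPM in Taipei, 85.9, 116, 98.1, 109 and 103 in CGS, and 94.8, 92.7 and 101 in SAT. With HaSSA it was 108, 93.7 and 96.9 CPM in SSA, 105, 102, 105 and 114 in CGSxSSA, and 87.7, 91.1 and 87.7 in SATxSSA. The 4 CGSxSSA libraries lay just above the highest Taipei library, a separation that 7.21% of all genes showed, and the other lines overlapped Taipei. In CGSxSSA the log2 fold change was 0.20 (SE 0.0777, 95% interval 0.04 to 0.36, unadjusted p = 0.0186), and it did not pass the threshold with edgeR (adjusted p = 0.328). It was 0.10 in SSA (95% interval -0.07 to 0.27, adjusted p = 0.575) and -0.06 in SATxSSA (95% interval -0.24 to 0.11, adjusted p = 0.714).

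With the enzyme transgenes alone, bZIP60 had a log2 fold change of 0.14 in CGS (SE 0.0738, 95% interval -0.01 to 0.29, edgeR adjusted p = 0.251) and 0.05 in SAT (95% interval -0.12 to 0.22, adjusted p = 0.824). Both intervals include no change, and neither reaches the fold change that bZIP50 had in SSA. The order of the means was CGSxSSA (107 ± 5.37 CPM, SD, n = 4), CGS, SSA, SAT, Taipei and SATxSSA (88.8 ± 1.99, SD, n = 3), and each neighbouring pair differed by less than the larger of its SDs, with overlapping ranges.

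The scaling of the libraries bears on IRE1, bZIP39 and bZIP60 in the lines with HaSSA. Without TMM, the median log2 fold change of all genes moved from 0.00 to 0.25 in SSA, from 0.01 to 0.16 in CGSxSSA and from 0.00 to 0.23 in SATxSSA. The log2 fold change in SSA then became 0.39 for bZIP39 and 0.35 for bZIP60, both past the threshold, and 0.20 for IRE1. Relative to the shifted median these were 0.13, 0.10 and -0.06, as with TMM. Subtracting the median assumes, as TMM does, that most genes do not change. The likeness is thus built in and cannot decide which scaling is right. bZIP50 in SSA was 1.93 without TMM, and 1.68 above the shifted median. In SSA the share of called genes that were higher was 74.4% of 659 genes with TMM and 97.8% of 2999 without.

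**Figure D2:**
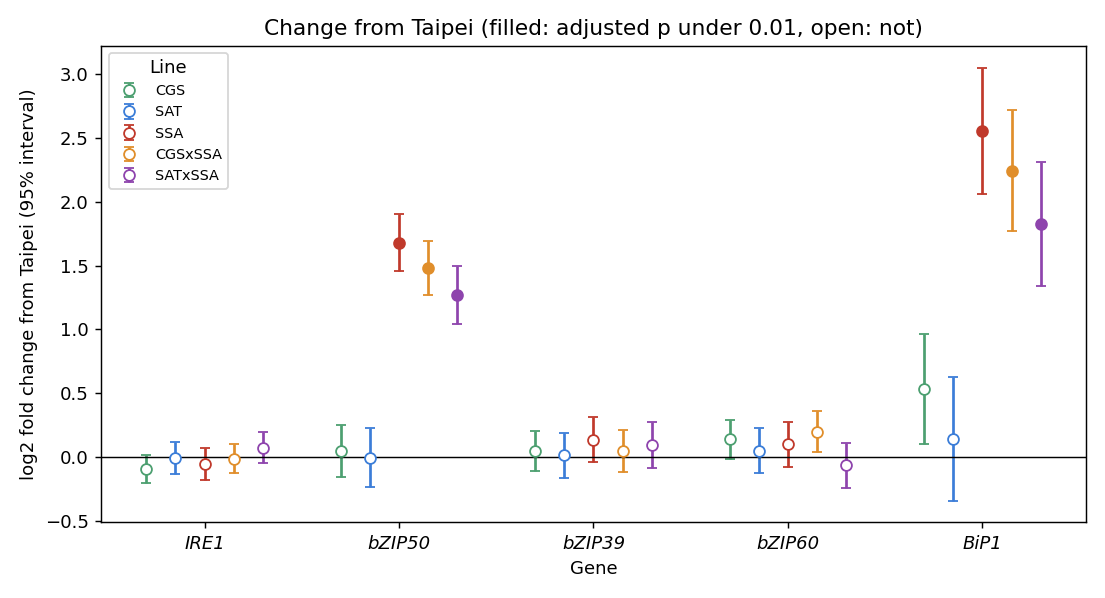
Log2 fold change from Taipei (y axis) of the 4 sensor genes and BiP1 (x axis) in the 5 transgenic lines, with 95% intervals not adjusted for the number of genes. Filled points passed the adjusted p of 0.01. bZIP50 and BiP1 have filled points in SSA, CGSxSSA and SATxSSA, and all points of IRE1, bZIP39 and bZIP60 are open and lie between -0.09 and 0.20.

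BiP1 rose in the same 3 lines. Its level was 649, 359, 497 and 465 CPM in Taipei, 575, 878, 625, 875 and 605 in CGS, and 587, 372 and 672 in SAT. With HaSSA it was 2754, 2286 and 3639 CPM in SSA, 1786, 2084, 3082 and 2375 in CGSxSSA, and 1468, 1893 and 1864 in SATxSSA. Every library with HaSSA lay above every library without, as was so for 0.328% of all genes tested. The log2 fold change from Taipei was 2.56 in SSA (SE 0.238, edgeR adjusted p = 5.35e-07), 2.24 in CGSxSSA (adjusted p = 2.01e-06) and 1.82 in SATxSSA (adjusted p = 7.42e-05). Without SATxSSA replicate 1 the last of these was 1.93 (edgeR adjusted p = 1.98e-04). In CGS it was 0.53 (95% interval 0.10 to 0.96), which did not pass the threshold (adjusted p = 0.113).

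The CPM of BiP1 per CPM of bZIP50 was 33.0 ± 6.57 in Taipei, 46.7 ± 9.48 in CGS and 36.6 ± 8.60 in SAT (SD over libraries). It was 60.5 ± 6.67 in SSA, 56.1 ± 10.5 in CGSxSSA and 49.4 ± 10.5 in SATxSSA. Within SATxSSA the ratio ran from 37.4, in replicate 1, to 56.4. The lower mean of SATxSSA thus leans on replicate 1, the library that stood apart, and a mean without it was not computed. The ratio was thus higher in SSA than in Taipei without overlap (56.5 to 68.2 against 25.9 to 41.6), and it overlapped between CGS and the double lines. For the levels of single genes, 21.1% had ranges that did not overlap between SSA and Taipei. These ratios compare lines with each other and say nothing of the relative number of transcripts of the genes, whose lengths were not used.

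Because BiP1 itself separated the lines with HaSSA from the others, the relation of each member to BiP1 was examined apart in the 12 libraries without HaSSA and in the 10 with it, on log2(CPM + 0.5). The permutation moved libraries freely between the lines of a set, so differences between line means enter its p-values. Of the 8 relations, 2 passed an adjusted p of 0.05 by Pearson's r. With HaSSA, bZIP50 was higher in libraries with more BiP1 (r = 0.80, two-sided permutation p = 0.00559, adjusted over the 8 relations 0.0233; Spearman's rho = 0.81, permutation p = 0.00696, adjusted 0.0278). Leaving out the libraries farthest from the median of BiP1, SATxSSA replicate 1 and SSA replicate 3, gave r = 0.82. The means of both genes fell from SSA (47.4 CPM for bZIP50, 2893 for BiP1) through CGSxSSA (41.4 and 2332) to SATxSSA (35.7 and 1742). With each value centred on the mean of its line, r was 0.55, for which no p-value was computed. Without SATxSSA replicate 1 alone, the uncentred r was 0.89. The relation missed the threshold without CGSxSSA replicate 1 (r = 0.78, adjusted permutation p = 0.0538), SSA replicate 1 (r = 0.78, adjusted permutation p = 0.0524) or SSA replicate 3 (r = 0.68, adjusted permutation p = 0.0900).

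Without HaSSA, it was bZIP60 that was higher in libraries with more BiP1 (r = 0.74, permutation p = 0.00582, adjusted 0.0233; rho = 0.81, permutation p = 0.00228, adjusted 0.0182). Without SAT replicate 2 and Taipei replicate 2, the libraries farthest from the median of BiP1, r was 0.90, and centred on the line mean it was 0.65. This relation missed the threshold without CGS replicate 2 (r = 0.65, adjusted permutation p = 0.0792) or CGS replicate 4 (r = 0.69, adjusted permutation p = 0.0594), the CGS libraries with the highest levels of both genes. It also missed it on CPM without TMM (r = 0.63, adjusted permutation p = 0.122). Over the 10 libraries with HaSSA, the r of bZIP60 with BiP1 was 0.47 (adjusted permutation p = 0.179).

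The other relations did not pass by Pearson's r. For bZIP39, r was 0.65 without HaSSA (permutation p = 0.0240, adjusted 0.0594; rho = 0.57, adjusted 0.110) and 0.51 with it (adjusted permutation p = 0.170; rho = 0.53, adjusted 0.124), and centred on the line means r was 0.72 and 0.86. For bZIP50 without HaSSA, r was 0.53 (adjusted permutation p = 0.120; rho = 0.53, adjusted 0.110) and 0.27 without the libraries farthest from the median. IRE1 ran the other way, with r = -0.68 over the libraries with HaSSA (permutation p = 0.0297, adjusted 0.0594; rho = -0.75, adjusted 0.0460) and -0.27 when centred on the line means. Without SATxSSA replicate 1, the r of IRE1 over these libraries was -0.55 (adjusted permutation p = 0.204). Without HaSSA its r was -0.41 (adjusted permutation p = 0.179; rho = -0.52, adjusted 0.110) and -0.05 when centred. For bZIP60 with HaSSA, rho was 0.56 (adjusted 0.110).

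**Figure D3:**
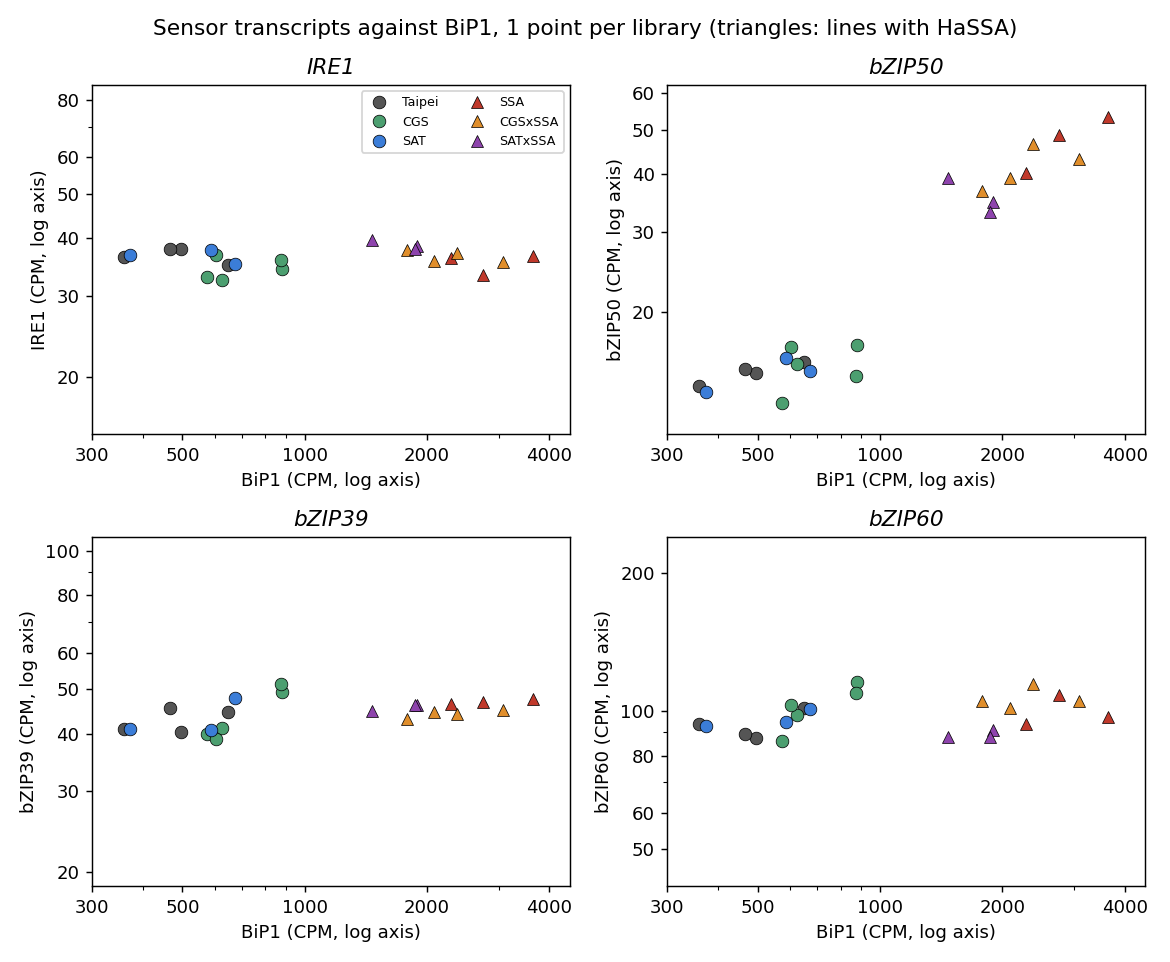
CPM of each sensor transcript (y axis) against CPM of BiP1 (x axis), both on log axes, with 1 point per library. Circles are the 12 libraries without HaSSA and triangles the 10 with it. In the bZIP50 panel the triangles form a separate group at 33.0 to 53.3 CPM that slopes upward with BiP1. In the other panels the heights of circles and triangles overlap, though in the bZIP39 panel 7 of the 12 circles lie below the lowest triangle.

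The genes whose pattern over the 22 libraries was most like that of each member were sought among 15891 genes with a mean of at least 5 CPM, as the root mean square difference of centred log2 CPM. The gene nearest to bZIP50 was GRP94 Os06g0716700, the Hsp90 chaperone of the ER, at 0.128 log2 units. The next was Os05g0156500, a co-chaperone named DjB6, at 0.148. bZIP50 itself varied by 0.729 around its mean. BiP1 was 33rd in this order, at 0.404, since its rise in the lines with HaSSA was larger on the log2 scale than that of bZIP50.

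The other members had little pattern to match. IRE1 varied by 0.0720 log2 units around its mean, bZIP39 by 0.103 and bZIP60 by 0.125. Their nearest genes were Os01g0812050 at 0.0510 and Os03g0833300 at 0.0595 for IRE1, Os12g0586400 at 0.0654 and Os12g0618300 at 0.0657 for bZIP39, and Os05g0371200 at 0.0797 and Os02g0116900 at 0.0828 for bZIP60. The files give no names for these genes, and such distances are close to the members' own variation.

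The members were set beside the 24 ER chaperones and disulfide isomerases that the study examined, a list chosen on these libraries and thus not independent evidence of its direction. In SSA 12 of the 24 rose and 0 fell (median log2 fold change 0.88, against 0.00 over all genes), in CGSxSSA 12 rose (median 0.84) and in SATxSSA 9 rose (median 0.43). Of all genes, edgeR called 2.46% in SSA, 1.08% in CGSxSSA and 1.22% in SATxSSA, in either direction. In CGS and SAT edgeR called none of the 24, near the 3.69% and 0.69% of all genes that it called there. DESeq2 called none higher there, and at an unadjusted p under 0.05 the counts were 3 in CGS and 5 in SAT, of which 1 and 0 were higher. The share of all genes at this unadjusted limit is not given here. Among the genes that rose in SSA were BiP4 Os05g0428600, another BiP (log2 fold change 7.79, edgeR adjusted p = 1.33e-09), the nucleotide exchange factor NEF Os09g0512700 (3.99), the protein disulfide isomerase PDIL2-3 Os09g0451500 (2.31), Hsp70 Os02g0710900 (1.70) and GRP94 (1.60). The lectin chaperone calnexin, CNX Os04g0402100, had 1.18, the oxidase ERO1 Os03g0733800 1.16 and calreticulin CRT Os07g0246200 0.60.

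bZIP50, at 1.68, lay between Hsp70 and GRP94 in SSA. It was above GRP94 and Hsp70 in SATxSSA, where it was 1.27 and these were 1.09 and 1.14. Of the 24, Hsp70 and PDIL2-3 were lower in SATxSSA than in SSA with edgeR (log2 fold change -0.56, adjusted p = 0.00670, and -0.76, adjusted p = 0.00166), a comparison in which bZIP50 had -0.41 and did not pass. IRE1, bZIP39 and bZIP60 lay among the list's genes that were not called.

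**Figure D4:**
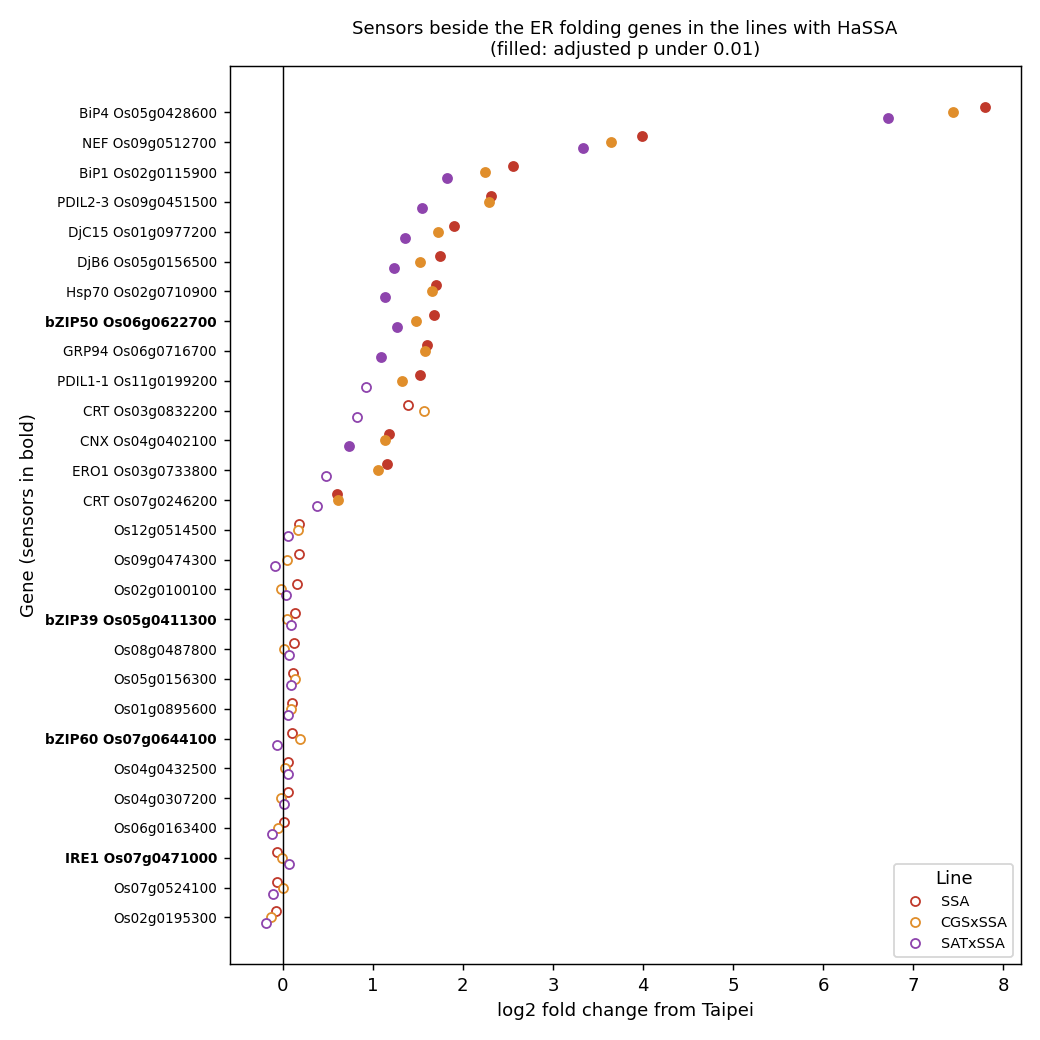
Log2 fold change from Taipei (x axis) of the 24 ER folding genes and the 4 sensor genes (y axis, sensors in bold, ordered by the value in SSA) in the 3 lines with HaSSA. Filled points passed the adjusted p of 0.01. bZIP50 is filled in all 3 lines and stands between Hsp70 and GRP94 in the order set by SSA, while IRE1, bZIP39 and bZIP60 lie near 0 with open points.

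The counts of the 4 members came almost wholly from the anti-strand column. Sense-strand reads amounted to at most 1.30% of the anti-strand count for IRE1, 0.614% for bZIP50, 0.584% for bZIP39 and 0.516% for bZIP60 in any library, and counting without strand gave 99.9 to 101% of the anti-strand counts. For BiP1 the unstranded count was only 17.8 to 24.3% of the anti-strand count, so its level depends on counting by strand. With unstranded counts, bZIP50 still rose in SSA, CGSxSSA and SATxSSA.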

How the data were processed

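Strand-specific single-end reads of 22 milkripe seed libraries were mapped by the authors to the rice assembly IRGSP-1.0 with STAR 2.7.1a. The deposited files hold raw, unnormalized counts of uniquely mapped reads per gene in 3 columns (unstranded, sense and anti-strand). The 4 totals that head each file stayed out of library sizes and tests. The authors mapped transgene reads separately, and no transgene level was computed here.

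The anti-strand counts, which the paper states it used, were tested with edgeR 4.0.16 (R 4.3.3). Genes were kept by filterByExpr, library sizes were scaled by TMM, and 1 quasi-likelihood fit with robust dispersion covered the 22 libraries, with no covariate beside the line. For the 11 comparisons, p-values are two-sided with a Benjamini-Hochberg adjustment across the 26821 genes, and a gene was called under 0.01. The SE of a log2 fold change was derived from its F statistic, and intervals are 95% intervals. Levels are CPM scaled by TMM, and the SD is that between libraries of a line. Seeds were taken panicle by panicle, and by the paper each library comes from a different plant, so the spread within a line is that between plants. Relations to BiP1 used permutation tests with 100000 resamples that took no account of the line, and adjusted p-values there are over the 8 relations. The fit was tested on simulated data.

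Genes named are the 4 members, BiP1, the ER folding genes the study gives by symbol, and for each member the 2 genes of nearest pattern. The members and gene lists were chosen with earlier results of these data known. The lists of green tissue and of embryo and aleurone markers were added after the files were seen, and marker identifiers come from general knowledge. Lists that needed gene descriptions (proteases of the sensors, ER-associated degradation, translocation, glycosylation, vesicle coats, Bax inhibitors and other bZIP genes) were not run, since the annotation table at hand does not carry these identifiers. For the same reason no positions or sequences are given. Every test was repeated with DESeq2 1.42.0, with RLE scaling, on library sizes alone, without the filter, for genes with a mean over 100 normalized counts, from the unstranded column, at a threshold of 0.05, with a block for the replicate number, and on only the lines compared. Relations were repeated with CPM on the linear scale. Each library was left out in turn.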

Additional observations from a re-analysis of the deposited data

Results flagged for a closer look

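The sense-strand column, which none of the comparisons used, was scanned for the 4 members in each of the 5 transgenic lines. A line lay wholly above Taipei in 1 case, bZIP50 in SATxSSA, and how often chance gives such a case was not computed. The 3 SATxSSA libraries held 8, 3 and 4 sense-strand reads, with a lowest level of 0.0803 CPM and a highest of 0.241 CPM, above the highest Taipei library at 0.0650 CPM (0 to 2 reads). SSA held 1 to 5 such reads and CGSxSSA 1 to 4, at up to 0.128 and 0.132 CPM, and both overlapped Taipei and SATxSSA. As a share of the anti-strand count of bZIP50, sense-strand reads were 0.231 to 0.614% in SATxSSA and 0 to 0.417% in Taipei, which overlap. With so few reads the difference was not tested. The level of each of the 4 members and of BiP1 was also examined in Taipei, CGS and CGSxSSA for a library far from the others, which chance gives in about 1 of 20 groups, and in these 15 groups 0 such libraries were found. No interaction of HaSSA with AtD-CGS or EcSAT passed the threshold for a member.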

How the results depend on the processing

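The rise of bZIP50 passed the threshold under every alternative run in SSA (log2 fold change 1.59 to 1.93), CGSxSSA (1.42 to 1.63) and SATxSSA (1.20 to 1.49) against Taipei, in CGSxSSA against CGS (1.37 to 1.58) and in SATxSSA against SAT (1.20 to 1.56). In the other 6 comparisons bZIP50 passed under none of the alternatives, and the lowest edgeR adjusted p among them was 0.0266, for SATxSSA against SSA without SSA replicate 2 (range over the alternatives 0.0266 to 0.391).

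Without TMM, values of the uncalled members shifted with the median of all genes. From Taipei, bZIP39 became 0.39 in SSA and 0.32 in SATxSSA and bZIP60 0.35 in SSA and 0.35 in CGSxSSA, all past the threshold. In SATxSSA against SAT, where the median moved from 0.01 to 0.30, IRE1 became 0.37 and bZIP39 0.37, also past it. Other values changed sign without passing, namely IRE1 in SSA (0.20) and CGSxSSA (0.14), bZIP39 (-0.052) and bZIP60 (-0.0092) in SAT, bZIP60 in SATxSSA against Taipei (0.16) and SAT (0.17), and IRE1 (-0.061) and bZIP60 (-0.0053) in CGSxSSA against SSA.

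Between lines, samples of the same replicate number had correlations of -0.56 to 0.36 (median 0.03) in their deviations from the line means. Samples of other numbers had -0.55 to 0.55 (median 0.00). Whether some samples share a batch was not tested. With the replicate block, bZIP50 remained past the threshold in the 5 comparisons named above, and near-zero values changed sign for IRE1 (0.0068) and bZIP50 (0.013) in SAT and bZIP39 in CGSxSSA against CGS (-0.035).

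Leaving out 1 library moved values near zero across it without a call. From Taipei these were IRE1 in SAT (-0.033 to 0.017) and CGSxSSA (-0.035 to 0.0026), bZIP50 in SAT (-0.062 to 0.060), bZIP39 in CGS (-0.014 to 0.086) and SAT (-0.066 to 0.053) and BiP1 in SAT (-0.036 to 0.36). In CGSxSSA against CGS they were bZIP39 (-0.039 to 0.061) and bZIP60 (-1.0e-05 to 0.10). The interaction with AtD-CGS ranged from -0.10 to 0.020 for bZIP60, and that with EcSAT from -0.093 to 0.026 for bZIP39.

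Relations to BiP1 were near their threshold. Leaving out 1 library gave r of 0.68 to 0.89 for bZIP50 with HaSSA, 0.65 to 0.82 for bZIP60 without HaSSA, 0.40 to 0.66 for bZIP50 and 0.52 to 0.72 for bZIP39 without HaSSA, and -0.84 to -0.55 for IRE1 with HaSSA. The last 3 passed without CGS replicate 1 (bZIP50 and bZIP39), without Taipei replicate 4 or CGS replicate 5 (bZIP39) and without SSA replicate 3 (IRE1). On the linear scale bZIP39 without HaSSA passed (r = 0.72), and without TMM bZIP60 without HaSSA did not (r = 0.63).

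The number of genes called depended on the tool and threshold. It was 659 in SSA, 291 in CGSxSSA and 326 in SATxSSA, and 1106, 443 and 876 with DESeq2, 1534, 463 and 1238 at 0.05, and 2999, 377 and 1544 without TMM. For CGS it was 991, 1659 with DESeq2, 2476 at 0.05, 597 with the block and 367 with only the lines compared, and for SAT 185, 551 with DESeq2, 631 at 0.05 and 105 at a mean above 100. With the block SSA gave 418. Leaving out 1 library gave 247 to 638 in SSA, 493 to 1058 in CGS, 97 to 175 in SAT and 165 to 385 in SATxSSA. The cause of these shifts was not tested. Against Taipei, the 95% intervals of the 17 member values that were not called lay between 0.847- and 1.28-fold.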
